A study of Mus musculus with 12 samples.

Results

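The genes described here are 38 cell cycle and proliferation genes, from the G1 cyclins to the motors and kinases of mitosis, measured in RNA of mouse CD4 T cells that the labels call regulatory T cells (Tregs). They were chosen by symbol from knowledge of the cell cycle and not by a rule on their values, but with earlier results of these data known. All 38 symbols matched an Ensembl identifier, so they are 38 of the 21839 genes in the count table. All 38 were also among the 11766 genes with enough reads to test.

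The study asked how Tregs differ when dendritic cells lack Atg5, a gene needed for autophagy, and it sorted a CD25 High and a CD25 Low population. Every mouse was C57BL/6 and carried Atg5 flox/flox. WT mice had the genotype Atg5 flox/flox CD11c Cre -/-, and TG mice were Atg5 flox/flox CD11c Cre +/-, in which the CD11c promoter drives Cre. The Cre acts in CD11c-expressing cells and the sequenced T cells were not its target. Each genotype gave a High and a Low group, so there were 4 groups of 3 libraries, numbered 1 to 3 in each. Cells came from spleen and from inguinal, cervical and brachial lymph nodes, and were gated on CD4, a further surface marker and CD25, with no Foxp3 stain or reporter named. Ages are not given, and the labels do not say whether the replicates are separate animals or pools, so a p-value here speaks only of the spread among these libraries, which may be technical.

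A dividing cell copies its DNA in S phase and separates the copies in mitosis. E2F transcription factors switch on the genes of replication, and the genes of G2 and mitosis follow later in the cycle. In resting cells the DREAM complex holds both sets of promoters down, through E2F sites and through the cell cycle homology region (CHR), often next to CCAAT boxes bound by NF-Y. Most T cells in spleen and lymph nodes are not dividing, whereas activated and effector Tregs turn over faster, and RNA of these genes is commonly read as a sign of cells in cycle. In bulk RNA, a smaller number of cycling cells and less RNA per cycling cell cannot be told apart.

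The promoter sequences below are shown because they are examples of the 3 motifs known from cell cycle promoters, in genes of mitosis and of the replicative helicase. They were chosen for their matches, and the counts over all promoters follow. They end just before the transcription start or the first annotated exon, run 5′ to 3′ on the gene's strand, and come from RefSeq (GRCm38.p6). Capitals mark matches to the CHR letters TTTGAA or TTCGAA, to CCAAT, and to the E2F letters TTTCCCGC, TTTGGCGC, TTTCGCGC or TTTGCCGC, each on either strand, so that ATTGG is CCAAT and TTCAAA is TTTGAA read on the other strand. Adjoining capitals in Mcm5 and Mcm6 are E2F matches on both strands that overlap.
Top2a (chr11:99024190-99024349, minus strand): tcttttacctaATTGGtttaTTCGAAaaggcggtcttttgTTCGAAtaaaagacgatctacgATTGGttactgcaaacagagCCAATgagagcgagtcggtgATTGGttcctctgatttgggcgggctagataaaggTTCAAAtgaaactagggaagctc
Cdk1 (chr10:69352939-69353072, minus strand): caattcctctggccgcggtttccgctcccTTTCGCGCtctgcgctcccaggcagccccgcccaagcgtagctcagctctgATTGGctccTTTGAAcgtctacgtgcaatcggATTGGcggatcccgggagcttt
Cdc20 (chr4:118437353-118437503, minus strand): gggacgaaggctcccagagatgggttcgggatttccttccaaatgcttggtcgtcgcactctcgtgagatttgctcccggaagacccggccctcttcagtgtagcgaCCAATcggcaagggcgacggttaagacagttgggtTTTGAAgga
Kif11 (chr19:37376222-37376381, plus strand): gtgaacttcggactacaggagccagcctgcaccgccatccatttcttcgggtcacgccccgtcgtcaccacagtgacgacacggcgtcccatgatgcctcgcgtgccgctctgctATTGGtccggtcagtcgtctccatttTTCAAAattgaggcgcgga
Mcm5 (chr8:75109349-75109508, plus strand): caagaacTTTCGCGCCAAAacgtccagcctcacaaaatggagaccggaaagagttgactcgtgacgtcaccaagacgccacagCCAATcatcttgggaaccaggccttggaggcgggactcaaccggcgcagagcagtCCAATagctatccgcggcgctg
Mcm6 (chr1:128359706-128359865, minus strand): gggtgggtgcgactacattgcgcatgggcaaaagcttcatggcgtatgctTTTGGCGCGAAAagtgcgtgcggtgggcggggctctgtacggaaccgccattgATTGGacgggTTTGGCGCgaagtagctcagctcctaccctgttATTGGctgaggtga

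Promoters of 300 bases, from 250 before to 50 after the start, were matched for 32 of the 38 genes, and those of Ccne2, Mcm4, Ccna2, Aurkb, Kif20a and Tpx2 were not. A CHR match was found in 17 of the 32 promoters (53.1%), against 19.23% of all 32851 mouse promoters of that length. CCAAT was found in 25 (78.1%), against 37.41%. An E2F match was found in 6 (18.8%), against 2.26%. The 6 with E2F letters were Cdc6, Mcm3, Mcm5, Mcm6, Mcm7 and Cdk1, of which 5 load or form the replicative helicase. By phase, CHR letters were in 14 of 18 promoters of G2 and mitosis genes (not in Ccnb1, Birc5, Nusap1 and Cenpe) and in 3 of 14 of G1 and S phase genes (Cdc45, Mcm2 and Mcm7). CCAAT was in 16 of 18 and 9 of 14, and E2F letters were in 1 of 18 and 5 of 14, so no motif was held by 1 phase alone. In Top2a, which encodes the topoisomerase that untangles sister DNA, 4 CHR matches stood at positions -179, -140, -120 and -23 from the start, among 6 CCAAT matches. In Cdk1, the kinase that drives mitosis, CHR matches stood at -71 and -15 and an E2F match at -131. In Cdc20, an activator of the anaphase-promoting complex, and in Kif11, a spindle motor, 1 CHR match lay 18 and 19 bases before the start. These are letter matches, not shown to be bound in these cells.

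Library depth ran from 6767828 reads in TG High replicate 2 to 23942479 in WT High replicate 2, and the other 10 libraries were between 18161830 and 22723332. Levels are given as CPM, read counts scaled to the library size with TMM factors. The sort labels held for their own genes: Il2ra, which encodes CD25, was higher in CD25 High than Low by 1.03 (WT) and 1.01 (TG) on the log2 scale, with edgeR adjusted p-values of 1.42e-05 and 2.14e-05 in the fit with replicate number as a block. Libraries that share a replicate number varied together, and the 4 libraries numbered 1 stood apart from the other 8. The labels do not say what the number marks. It dominates the genes described here, so their values by number come first, and each group comparison is then given with the number as a block and without the libraries numbered 1.

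**Figure D1:**
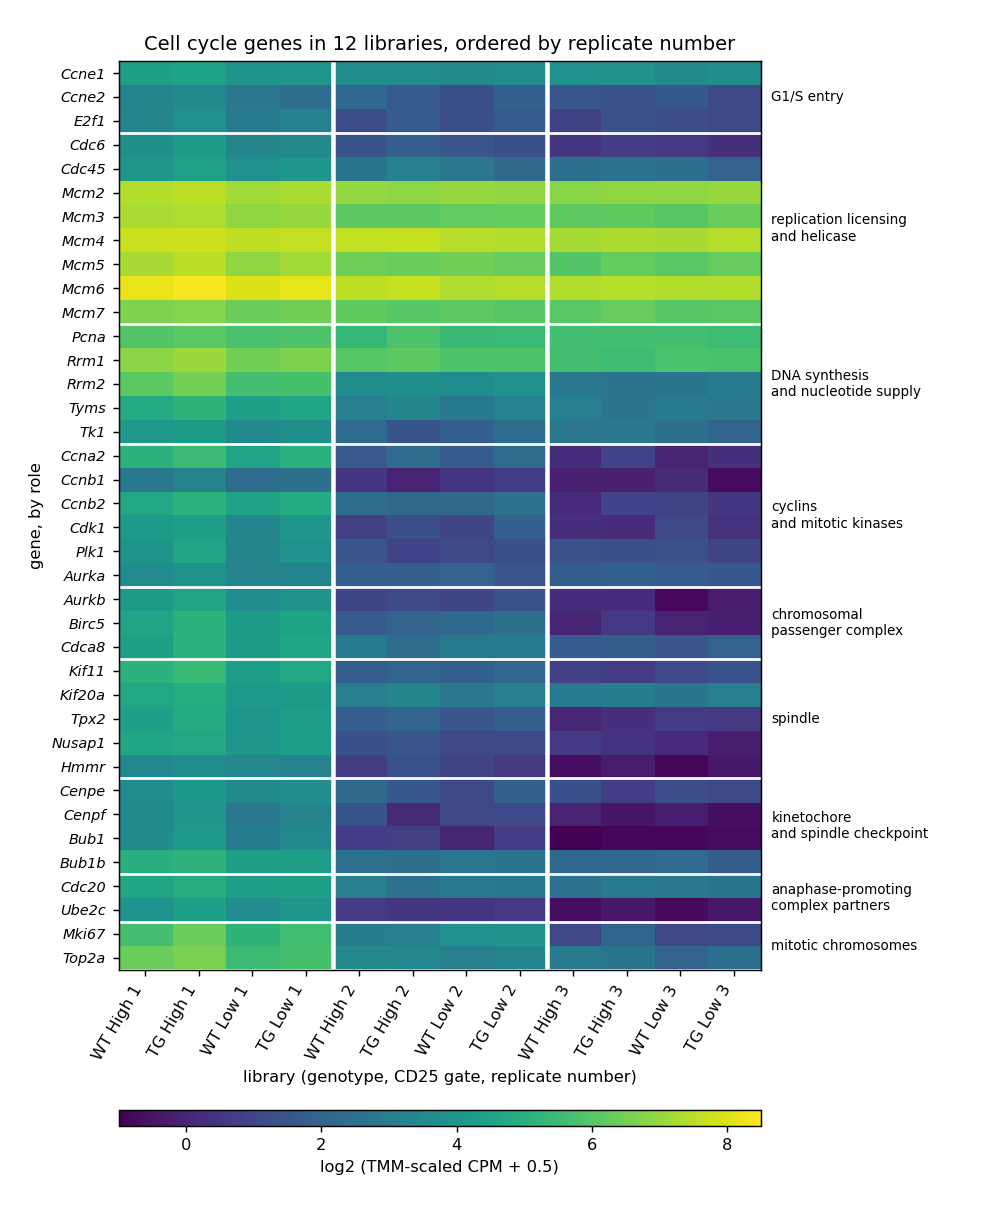
Level of the 38 genes (rows, by role) in the 12 libraries (columns, by replicate number) as log2 of CPM plus 0.5, on the colour scale below the panel. The 4 columns numbered 1 are the brightest for nearly every row, and the Mcm genes keep a high level in all 12.

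Averaged over the 12 libraries and per kilobase of exon, Pcna and the 6 genes Mcm2 to Mcm7 were the most abundant of the 38, at 17.5 to 51.2 CPM, and the other 31 stood at 0.264 to 10.15, replication genes such as Cdc6 and Tk1 among them. Per kilobase of exon, the mean over the libraries numbered 1 was 62.7 CPM for Mcm6 and 57.4 CPM for Mcm4, subunits of the MCM helicase that opens DNA at origins, and 25.01 CPM for Pcna, the clamp that holds DNA polymerase. It was 5.34 CPM per kilobase for Mki67, the antigen Ki-67 used to stain cycling cells, 3.17 for Cdk1 and 0.675 for the kinetochore gene Cenpf. In the libraries numbered 3 the same measure was 36.5 for Mcm6, 44.4 for Mcm4 and 20.6 for Pcna, and only 0.209 for Mki67, 0.193 for Cdk1 and 0.0190 for Cenpf. Under 1 CPM, before any scaling by length, were 0 of the 38 genes in each library numbered 1, 0 to 3 in those numbered 2, and 9 to 12 in those numbered 3.

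With the 4 groups held constant, all 38 genes differed between replicate numbers (edgeR quasi-likelihood F test, Benjamini-Hochberg adjusted over 11766 genes), against 34.3% of all genes tested. All 38 were highest in number 1, as were 16.4% of all genes. In the paired contrasts, 37 of 38 were called higher in number 1 than in 2 (16.8% of all genes were), 38 of 38 higher in 1 than in 3 (13.4%), and 16 of 38 higher in 2 than in 3 (6.43%). The median difference over the 38 genes was 2.14 (log2) from 1 to 2, 2.92 from 1 to 3 and 0.67 from 2 to 3, where the medians over all genes were 0.0047, -0.0114 and -0.000349. Mcm4 was the gene not called between 1 and 2 (log2 0.14, SE 0.08, adjusted p = 0.166). In 36 of the 38 genes the 4 libraries numbered 1 all lay above the other 8, as they did in 8.99% of all genes tested, and the exceptions were Mcm4 and Pcna. That libraries numbered 1 stand apart was already known from earlier work on these data, so the counts describe the size and make-up of that difference.

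The G1/S entry genes are Ccne1 and Ccne2, which encode the E cyclins that start S phase with CDK2, and the transcription factor E2f1. Ccne1 stood at 20.6 (WT High), 22.2 (TG High), 14.7 (WT Low) and 15.4 CPM (TG Low) in number 1, at 10.5 to 12.2 in the libraries numbered 2 and at 11.1 to 13.8 in those numbered 3. Number 1 was 1.57-fold higher than number 2 (log2 0.65, SE 0.12, edgeR adjusted p = 0.000722), with no overlap. E2f1 stood at 9.59 (WT High), 13.2 (TG High), 6.78 (WT Low) and 8.55 CPM (TG Low) in number 1, at 1.85, 2.91, 1.96 and 2.93 in the same order in number 2, and at 1.26, 2.06, 1.86 and 1.70 in number 3. E2f1 was 3.90-fold higher in number 1 than in 2 (log2 1.96, SE 0.21, adjusted p = 5.22e-06), while numbers 2 and 3 overlapped.

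Replication licensing and helicase genes (Cdc6, Cdc45 and Mcm2 to Mcm7) differed least, with a median of 0.752 (log2) from number 1 to 2 and 0.881 from 1 to 3. Mcm5 stood at 152 (WT High), 181 (TG High), 120 (WT Low) and 143 CPM (TG Low) in number 1. It stood at 84.3, 79.7, 88.0 and 77.6 in the same order in number 2 and at 62.4, 76.3, 66.3 and 76.9 in number 3. The lowest library numbered 1 was above the highest of the others, and number 1 was 1.79-fold above number 2 (log2 0.84, SE 0.10, edgeR adjusted p = 2.70e-05). Cdc6, the loader of the helicase, differed more. Its mean was 12.8 CPM in number 1 and 2.45 in number 2, and the libraries numbered 3 stood at 0.742 to 1.17, a log2 difference of 3.68 from 1 to 3 (SE 0.19, adjusted p = 1.45e-09). The sum of the 8 genes was 943 to 1234 CPM in number 1, 697 to 746 in number 2 and 634 to 702 in number 3.

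DNA synthesis and nucleotide supply was split. Rrm2, the S-phase subunit of ribonucleotide reductase, stood at 68.5 (WT High), 91.6 (TG High), 50.0 (WT Low) and 52.2 CPM (TG Low) in number 1. It stood at 11.9, 12.9, 11.7 and 13.4 CPM in the same order in number 2 and at 6.54, 5.67, 5.92 and 7.15 in number 3. The 3 numbers did not overlap, and the number 1 libraries were 5.11-fold above number 2 (log2 2.35, SE 0.15, edgeR adjusted p = 1.18e-07). Its partner Rrm1 differed by 0.81 (SE 0.10) and Pcna by 0.41 (SE 0.09) in the same contrast. Tk1 and Tyms, thymidine kinase and thymidylate synthase, differed by 1.86 (SE 0.21) and 1.68 (SE 0.16).

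The cyclins and kinases of G2 and mitosis had medians of 2.8 (log2) from number 1 to 2 and 3.99 from 1 to 3. Cdk1 stood at 17.4 (WT High), 19.9 (TG High), 9.65 (WT Low) and 15.5 CPM (TG Low) in number 1. It stood at 1.22, 1.99, 1.47 and 3.28 CPM in the same order in number 2 and at 0.741, 0.657, 1.61 and 0.795 in number 3. Number 1 was 7.91-fold above number 2 (log2 2.98, SE 0.34, edgeR adjusted p = 5.34e-05), and numbers 2 and 3 overlapped. Ccnb1, the mitotic cyclin that binds Cdk1, stood at 6.54, 8.96, 4.72 and 5.22 CPM in number 1 in that same order, and at 0.106 to 1.21 CPM in the other 8 libraries, from 2 to 24 reads each. Ccna2, the A cyclin of S phase and G2, differed more, by 3.21 (SE 0.16) from 1 to 2 and 5.39 (SE 0.18) from 1 to 3. The kinases Aurka and Plk1 did not separate numbers 2 and 3, by 0.07 (SE 0.18) and 0.03 (SE 0.25).

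Spindle, kinetochore and passenger genes shared this pattern. The chromosomal passenger genes Aurkb, Birc5 (survivin) and Cdca8 (borealin), which correct faulty attachments of chromosomes, summed to 47.9 to 89.1 CPM in number 1, 9.80 to 14.4 in number 2 and 2.98 to 4.60 in number 3. The 5 spindle genes Kif11, Kif20a, Tpx2, Nusap1 and Hmmr summed to 78.0 to 137 CPM in number 1, 15.0 to 21.6 in number 2 and 9.39 to 11.6 in number 3. Among them Kif20a differed least, with a log2 difference of 1.49 (SE 0.14) from 1 to 2. The checkpoint kinase Bub1 was nearly absent from number 3, where the 4 libraries held 0, 1, 1 and 2 reads against 143 to 319 in number 1, so its fitted difference of 7.71 (log2) rests on 4 reads. Ube2c, the ubiquitin-conjugating enzyme of the anaphase-promoting complex, was 14.7-fold higher in number 1 than in 2 (log2 3.88, SE 0.20, edgeR adjusted p = 4.04e-09), while Cdc20 was higher by 1.69 (SE 0.16).

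Both genes of mitotic chromosomes followed. Mki67 stood at 51.5 (WT High), 79.3 (TG High), 35.7 (WT Low) and 48.3 CPM (TG Low) in number 1. It stood at 7.67, 8.11, 13.4 and 14.2 CPM in the same order in number 2 and at 1.52, 3.66, 1.52 and 1.70 in number 3. The 3 numbers did not overlap, and number 1 was 4.59-fold above 2 (log2 2.20, SE 0.29) and 25.6-fold above 3 (log2 4.68, SE 0.34, edgeR adjusted p = 2.58e-05). Top2a stood at 80.9, 96.6, 45.0 and 52.5 CPM in number 1, at 10.7, 10.4, 8.40 and 9.29 in number 2 and at 7.32, 6.00, 3.62 and 5.03 in number 3, again in that order. It too separated the 3 numbers, by 2.75 (SE 0.13) from 1 to 2 and 0.87 (SE 0.14) from 2 to 3.

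**Figure D2:**
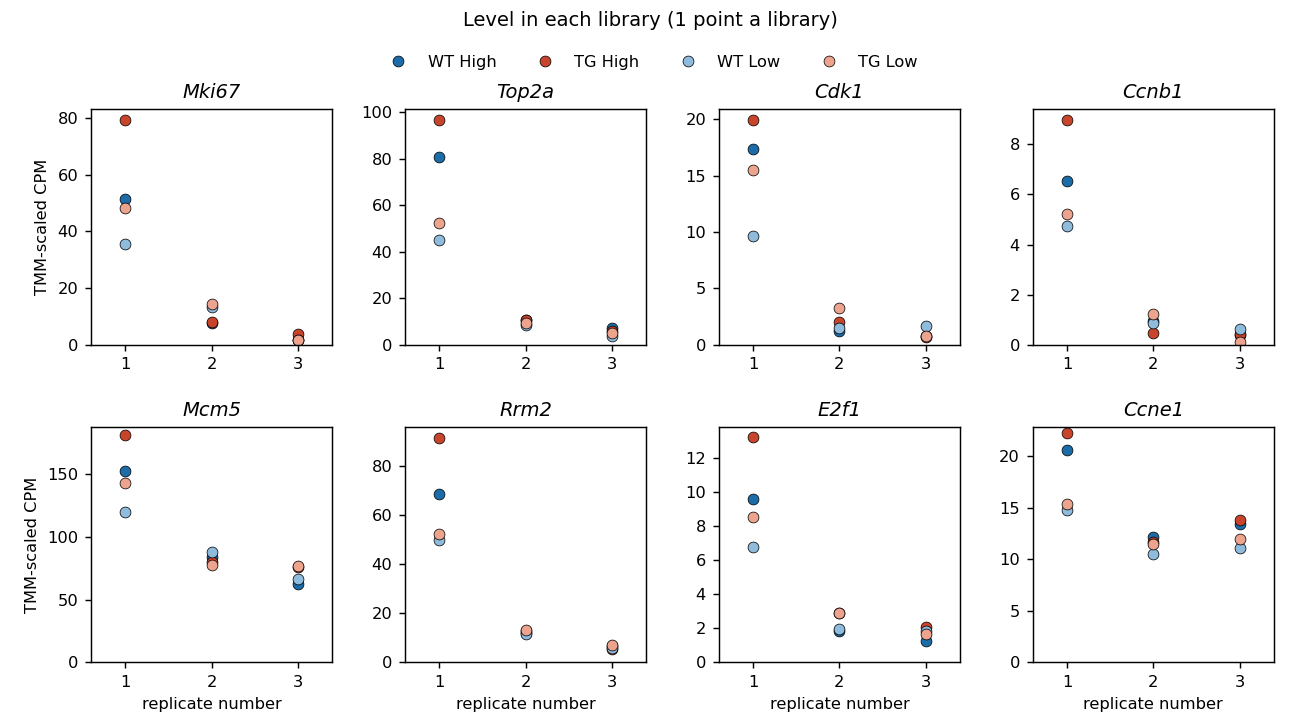
CPM (vertical axes) of 8 genes in each library, by replicate number (horizontal axes), with 1 point a library coloured by group. In every panel the 4 points of number 1 lie above the other 8, from 4.72 to 8.96 CPM for Ccnb1 and from 45.0 to 96.6 for Top2a.

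Split by phase, the 22 genes of G2 and mitosis had a median difference of 2.71 (log2, range 1.49 to 3.88) from number 1 to 2, and the 16 genes of G1 and S phase 0.911 (0.144 to 2.36). From 2 to 3, 14 of the 22 and 2 of the 16 were called higher in number 2. The summed level of the 22 was 5.88 times as high in number 1 as in 2 and 11.8 times as high as in 3, against 1.59 and 1.73 times for the 16. Across the promoters, the median difference of number 1 from the mean of numbers 2 and 3 was 3.19 (log2) for the 17 genes with CHR letters and 1.8 for the 15 without. It was 0.972 for the 6 with E2F letters and 2.68 for the other 26. These splits overlap with phase, since 14 of the 17 were G2 and mitosis genes and 5 of the 6 were G1 and S phase genes. Among G2 and mitosis genes with a matched promoter, those with CHR letters ran from 1.78 (Cdc20) to 5.59 (Bub1). Those without were Ccnb1 (3.34), Birc5 (3.98), Nusap1 (4.18) and Cenpe (2.52). The G1 and S phase genes with CHR letters were Cdc45 (1.58), Mcm2 (0.416) and Mcm7 (0.456). Over all tested genes with CHR letters in the promoter the median was 0.011. These medians are descriptions without a test.

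**Figure D3:**
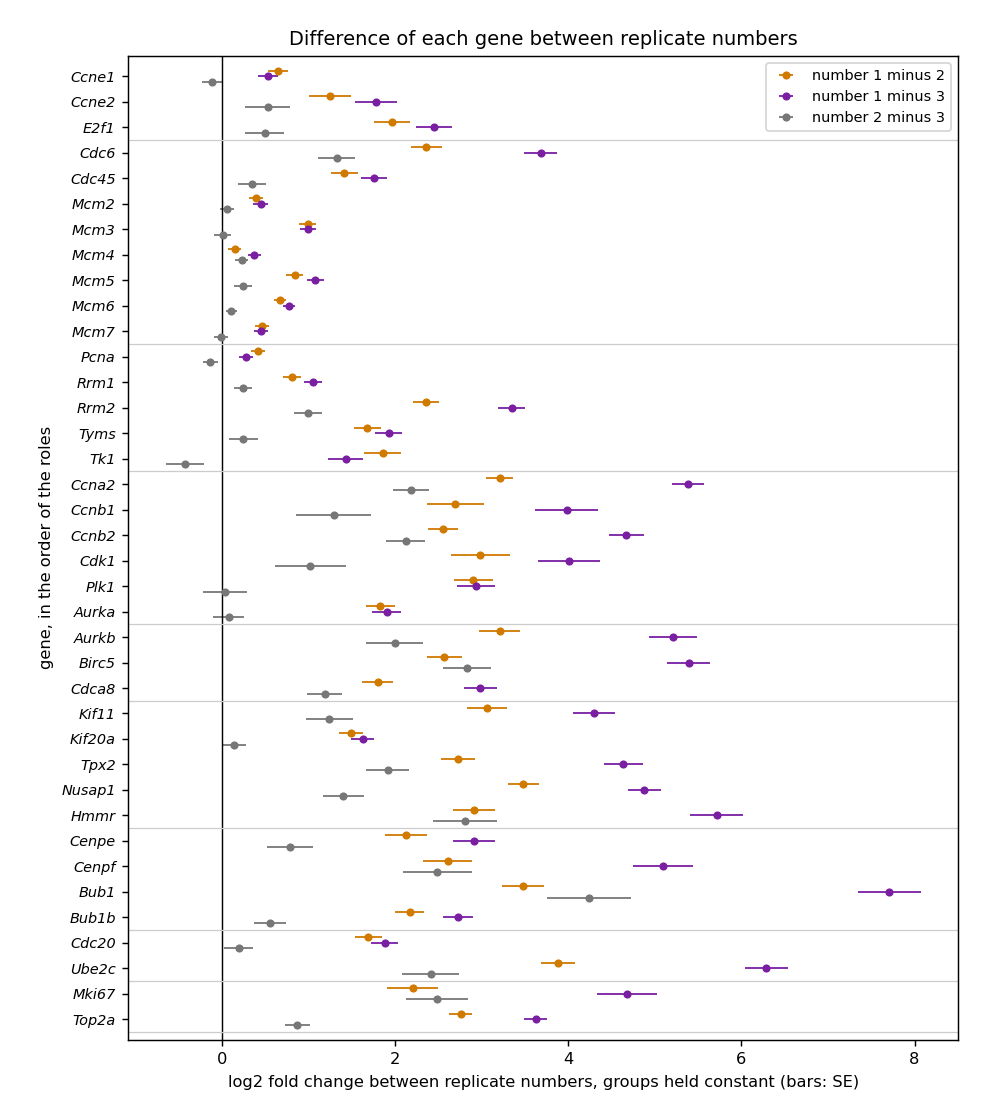
Log2 difference of each of the 38 genes between replicate numbers with the groups held constant (points) and its SE (bars), in the order of the roles. Differences from number 1 are positive for every gene and reach 7.71 for Bub1, while the largest among the Mcm genes is 1.08, for Mcm5.

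Other cell cycle genes, listed by function but with earlier results of these data known, were mostly highest in number 1 as well. Among kinesins and spindle factors, 22 of 24 differed by number and all 22 were highest in number 1, for example Racgap1, a regulator of cytokinesis (means of 42.4, 11.01 and 9.19 CPM in numbers 1, 2 and 3). Of the centromere and outer kinetochore list 18 of 21 were called, of replication fork and DNA polymerases 21 of 26, and of mitotic entry and checkpoint kinases 13 of 17, each called gene highest in number 1. These include Nuf2 (9.62, 1.27 and 0.435 CPM), a kinetochore subunit, Pclaf (19.8, 2.07 and 0.373 CPM), a partner of the Pcna clamp, and Nek2 (11.9, 1.61 and 0.334 CPM), a centrosome kinase. In origin licensing and firing 12 of 17 were called, 10 of them highest in number 1, with Mcm10 at 10.5, 1.08 and 0.370 CPM. In condensin, cohesin and segregation 10 of 17 were called, 8 of them highest in number 1, such as the condensin subunit Ncapg (18.1, 2.17 and 0.730 CPM).

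Of the G1 cyclins, CDKs, E2F and pocket proteins 9 of 18 were called, 7 of them highest in number 1, among them the repressors E2f7 and E2f8. Of the DREAM and MuvB genes 2 of 8 were called (25%, below the 34.3% of all genes), Foxm1 (16.7, 6.03 and 4.09 CPM) and Mybl2 (7.47, 2.03 and 2.52 CPM), the activators of late cell cycle promoters. Of the anaphase-promoting complex and its regulators 2 of 14 were called, a share below that of all genes. Of 6 CDK inhibitors tested Cdkn2c and Cdkn3 were called (33.3%, near the share of all genes), and Cdkn1b, which encodes p27, was not (42.3, 48.9 and 42.1 CPM, edgeR adjusted p = 0.237). Of 17 quiescence-associated genes 8 were called and 7 of these were lowest in number 1, as were 10.9% of all genes, for example Klf2 (745, 910 and 912 CPM), a factor of resting T cells, by -0.292 (log2) against number 2 and -0.295 against 3. Of 14 MYC and growth genes 9 were called, 5 highest and 2 lowest in number 1, and Myc itself was lowest there (208, 221 and 296 CPM).

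Over the 12 libraries, the genes outside the 38 whose log2 CPM followed the mean of the 38 best (Pearson) were Ccnf (r = 0.988), Asf1b, Ncapg, Uhrf1, Pclaf, Pimreg, Sapcd2, Shcbp1, Kif4 and Cit (r = 0.981). Of 11728 other tested genes 105 reached 0.95. The r of the 38 genes with their own mean ran from 0.673 for Pcna to 0.995 for Rrm2. The 12 points share the jump between number 1 and the other numbers, so these values mainly describe that jump.

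Markers of other cells and of effector Tregs moved with the replicate number too. All 17 tested B cell genes differed by number, 16 of them highest in number 1, and the list summed to 893 to 1409 CPM in number 1, 595 to 704 in number 2 and 422 to 588 in number 3. Ighm alone made up most of this sum, with means of 678, 502 and 404 CPM in numbers 1, 2 and 3. By gene, the median difference of the list was 2.62 (log2) from 1 to 2 and 4.16 from 1 to 3. The defining genes of B cells were present, with Cd79a, a chain of the B cell receptor complex, at 29.4 to 52.8 CPM in number 1 and 4.62 to 15.95 elsewhere. All 18 effector Treg genes were called, 17 highest in number 1, and summed to 1382 to 1870 CPM there and 754 to 962 elsewhere. Of 12 CD8 T and NK cell genes 11 were called, 10 highest in number 1 (sums of 149 to 250, 87.2 to 114 and 58.0 to 70.9 CPM). The largest of them in number 1 were Klrg1 (means of 64.0, 14.5 and 0.287 CPM in numbers 1, 2 and 3) and Nkg7 (36.3, 7.94 and 7.30 CPM). Klrg1 and Gzmb (21.1, 6.03 and 1.08 CPM) are also in the effector Treg list, so the sums of these lists are not separate. Of the CD8 chain genes, Cd8b1 was not called (32.5, 28.3 and 31.0 CPM). Cd8a was called, highest in number 1 (4.41, 1.58 and 3.70 CPM, edgeR adjusted p = 0.0039). Prf1 was lowest in number 1 (14.1, 33.6 and 20.7 CPM). Of 9 tested myeloid and dendritic genes 7 were called, 6 highest in number 1, and all 18 summed to 23.5 to 151, 12.4 to 22.97 and 24.4 to 36.3 CPM. Cebpb ran the other way and was lowest in number 1 (4.39, 6.48 and 21.1 CPM). It made up most of the sum in number 3, which had a mean of 31.8 CPM. Csf1r, a defining macrophage gene, was at 15.6 and 21.2 CPM in WT Low 1 and TG Low 1, at 0.107 and 1.59 in WT High 1 and TG High 1, and under 0.5 in the other 8.

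Plasma cell genes were called in 5 of 6, all highest in number 1, and germinal centre B cell genes in 1 of 6. Of the plasma cell genes, Prdm1 and Irf4 are also in the effector Treg list. Erythroid and platelet genes summed to 0.795 to 3.74 CPM over the 12 libraries, with Pf4 and Ppbp at 0. The T cell and Treg identity list summed to 9776 to 12590 CPM, so T cell RNA was abundant in every library, and 6 of its 14 genes were called by number. By group, the B cell sums ran from 422 to 893 CPM in WT High, 510 to 1345 in TG High, 494 to 1123 in WT Low and 588 to 1409 in TG Low. What part these markers have in the difference of the cell cycle genes was not tested.

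Within number 1 the cell cycle genes and the marker lists were alike by genotype and in part by gate. The 38 genes summed to 1964 (WT High), 2307 (TG High), 1554 (WT Low) and 1736 CPM (TG Low) in number 1. The B cell list summed to 893, 1345, 1123 and 1409 CPM in the same libraries. Both sums were larger in TG than in WT in each gate. The cell cycle sum was larger in CD25 High than in Low of each genotype, where the B cell sum was smaller. The myeloid sum, 23.5, 53.0, 88.0 and 151 CPM, and the CD8 T and NK sum, 149, 186, 177 and 250 CPM, were also larger in TG and smaller in CD25 High. The effector Treg sum, 1501, 1663, 1382 and 1870 CPM, was larger in TG, and it was larger in CD25 High in WT and smaller in TG.

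**Figure D4:**
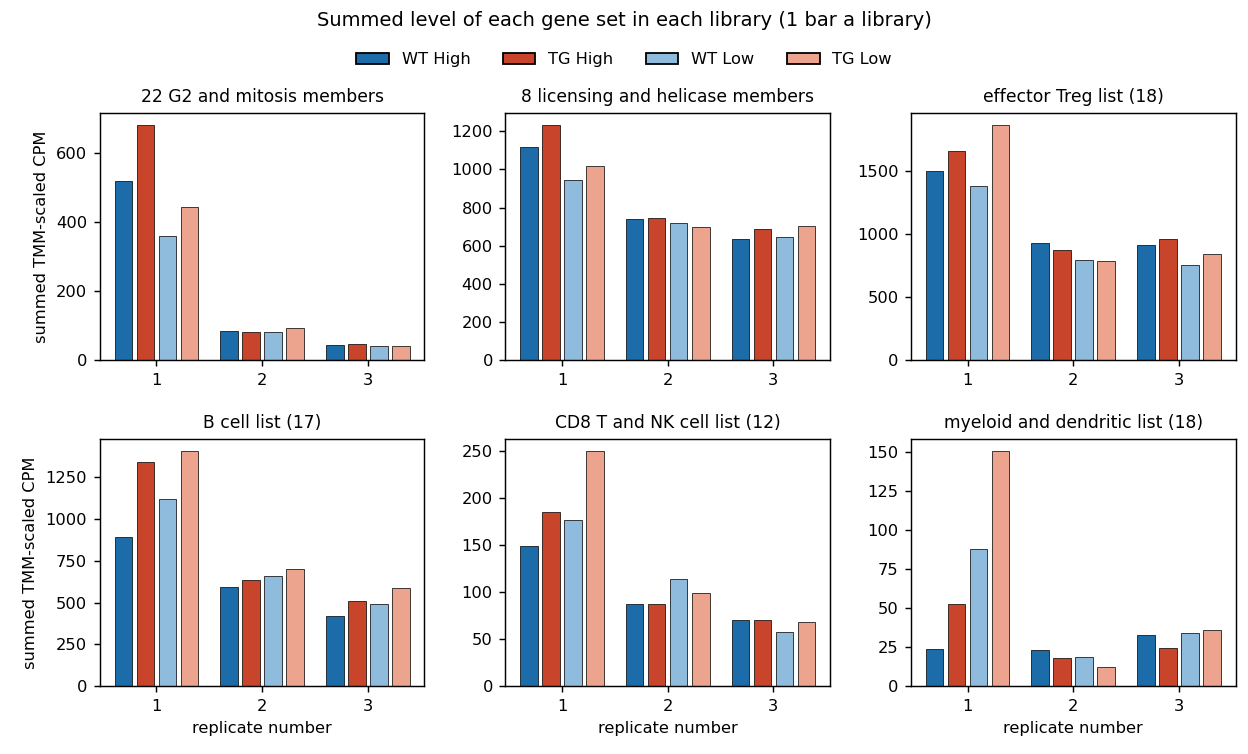
Summed CPM (vertical axes, from 0) of the 22 G2 and mitosis genes, the 8 licensing and helicase genes and 4 marker lists, with 1 bar a library by replicate number. In every set but the myeloid one all libraries numbered 1 exceed the other 8, and the G2 and mitosis genes are highest in TG High (681 CPM) and the B cell, myeloid, CD8 and NK, and effector lists in TG Low.

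CD25 High was compared with CD25 Low to ask whether cells with more CD25 carry more cell cycle RNA. Without the block, 0 of 38 genes passed in WT or in TG (edgeR), where 0.051% and 0.0085% of all genes passed. At an unadjusted p under 0.05 there were also 0 in either, against 3.32% and 4.91% of all genes, and DESeq2 called 0, against 0.391% and 0.535%. The median difference of the 38 was 0.29 (log2, 37 of 38 above 0) in WT and 0.46 (38 of 38) in TG, against all-gene medians of -0.00101 and -0.0011. The median SE was 1.16 without the block, and 0.213 in WT and 0.217 in TG with it. With the block the medians were 0.14 (34 of 38 above 0) and 0.31 (37 of 38), and 1 gene passed in WT and 0 in TG, where 1.63% and 1.68% of all genes did. At an unadjusted p under 0.05 these fits had 5 and 8 of the 38, all higher in CD25 High, where 9.22% and 12.2% of all genes had such a p in either direction. DESeq2 with the block called 1 of the 38 in WT and 1 in TG, against 2.39% and 3.04% of all genes. The High and Low groups overlapped in all 38 genes in both genotypes, where 8.86% and 8.07% of all genes had groups apart. In 36 of the 38, every library numbered 1 lay above all the others, and each group holds 1 such library. For those 36 the overlap was therefore fixed in advance and says nothing about the gate. B cell genes were mostly lower in CD25 High, with blocked medians of -0.445 in WT (2 of 17 above 0) and -0.314 in TG (3 of 17), and 1 was called, in WT. CD8 T and NK cell genes were lower too, with 4 of 12 called lower in WT (median -0.543) and 1 in TG (-0.59). The 9 tested myeloid and dendritic genes had medians of -0.751 and -0.738 with 0 called, while effector Treg genes had medians of 0.0452 and -0.0323, with 2 called higher in WT and 1 lower in TG. The part of these markers in the values of the 38 was not tested.

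The gene that passed was Top2a, at 33.0 ± 41.5 CPM in WT High and 19.0 ± 22.7 in WT Low (mean ± SD, n = 3 each). It was higher in CD25 High in all 3 WT pairs, as were 17.3% of all genes tested. The differences within pairs were 0.84, 0.35 and 1.00 (log2) in numbers 1, 2 and 3. The blocked difference was 0.73 (SE 0.15, 95% interval 0.44 to 1.03, edgeR adjusted p = 0.016, and 0.00118 by DESeq2). The levels of the groups overlap. The call was lost without WT High 1 (adjusted p = 0.122), WT High 3 (0.0713), WT Low 1 (0.249) or WT Low 3 (0.0742), and without all libraries numbered 1 it was 0.66 (adjusted p = 0.615). In TG the Top2a difference was 0.52 (SE 0.15, adjusted p = 0.111).

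In TG the smallest blocked p was that of Cdc45, part of the active helicase. It stood at 21.0, 8.27 and 5.63 CPM in TG High 1, 2 and 3 and at 15.2, 4.29 and 3.55 in TG Low. It was higher in all 3 pairs, as were 15.5% of all genes tested. The difference was 0.65 (SE 0.18, edgeR adjusted p = 0.084), which did not pass, and 0.65 with an adjusted p of 0.0491 by DESeq2. In WT, Cdc45 stood at 15.7, 5.90 and 5.06 CPM in High and 13.1, 6.38 and 4.99 in Low, a difference of 0.06 (SE 0.17). Of the listed genes outside the 38, Cdca5, the cohesion protector sororin, passed in TG (log2 1.02, SE 0.24, adjusted p = 0.0408) and no other pathway gene did in either genotype.

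The G1 genes Ccne1 and Ccne2 had the smallest p without the block in WT. Ccne2 stood at 9.22, 4.30 and 2.44 CPM in WT High 1, 2 and 3 and at 6.26, 1.96 and 2.59 in WT Low. The difference was 0.56 (SE 0.71, edgeR adjusted p = 1) without the block, and the groups overlapped. Ccne1 was higher in CD25 High in all 3 pairs of both genotypes, at 15.4 ± 4.56 CPM in WT High against 12.1 ± 2.31 in WT Low, a blocked difference of 0.33 (SE 0.13, adjusted p = 0.374). In TG, Pcna stood at 67.2, 56.8 and 50.5 CPM in High and 57.9, 43.5 and 46.5 in Low, a difference of 0.24 without the block (SE 0.17, adjusted p = 0.999).

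TG was compared with WT to ask whether Atg5 loss in CD11c-expressing cells went with cell cycle RNA in the T cells. In CD25 High, 0 of 38 passed by edgeR without the block or with it, as did 0% of all genes. At an unadjusted p under 0.05 there were 0 without the block (0.841% of all genes) and 5 with it, all higher in TG (3.55% of all genes in either direction). In CD25 Low 0 of 38 and 0% of all genes passed by edgeR, with 0 at an unadjusted p under 0.05 without the block (0.408% of all genes) and 2 with it, both higher in TG (3.25%). DESeq2 called 0 of the 38 in both gates, against 0% of all genes without the block and 0.0595% (High) and 0.017% (Low) with it. The medians of the 38 were 0.25 (log2, 36 of 38 above 0) in CD25 High and 0.17 (33 of 38) in CD25 Low without the block, and 0.19 (34) and 0.14 (29) with it. TG High and WT High overlapped in all 38 genes, as did TG Low and WT Low, where 4.27% and 3.3% of all genes had groups apart. For 36 of the 38 this too was fixed in advance by the libraries numbered 1, so it says nothing about genotype. The B cell list also lay higher in TG, with all 17 tested genes above 0 in both gates (blocked medians of 0.749 in High and 0.522 in Low). Of the effector Treg genes 14 of 18 were above 0 in High (median 0.154) and 18 of 18 in Low (0.283), and of the myeloid and dendritic genes 8 of 9 (0.523) and 7 of 9 (0.608). CD8 T and NK cell genes had medians of 0.0175 and 0.0677, with 7 of 12 above 0 in each gate. None of these marker genes was called by edgeR, and their part in the values of the 38 was not tested.

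Ccna2 came nearest in both gates. It stood at 33.8, 2.66 and 0.697 CPM in WT High 1, 2 and 3 and at 45.5, 4.44 and 1.36 in TG High, higher in TG in every pair. It stood at 23.1, 2.89 and 0.440 in WT Low and at 32.7, 4.44 and 0.742 in TG Low, again higher in every pair. Of all genes tested, 12.6% in CD25 High and 12.7% in CD25 Low were also higher in TG in all 3 pairs. In number 3, Ccna2 rests on 16 (WT High), 29 (TG High), 9 (WT Low) and 14 reads (TG Low). The blocked differences were 0.63 (SE 0.19, 95% interval 0.26 to 1.01, unadjusted p = 0.00452) and 0.57 (SE 0.20, interval 0.19 to 0.96, unadjusted p = 0.00968), with edgeR adjusted p-values of 0.999 and 1. With 3 libraries a group, the smallest two-sided p that an exact permutation allows is 0.1 if pairs are ignored. A permutation within pairs allows none as small. Exosc9 overlaps Ccna2 on the other strand by 510 of its 4083 exonic bases, and since this chemistry does not record strand, reads in that stretch cannot be told apart; how the counting treated them is not stated.

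None of the other genes with small p-values passed. Birc5 stood at 22.7, 2.70 and 0.479 CPM in WT High and 33.6, 3.52 and 0.985 in TG High, with a blocked difference of 0.66 (SE 0.25, edgeR adjusted p = 0.999). Bub1 stood at 7.34, 0.491 and 0.0489 CPM in WT Low and 10.3, 1.11 and 0.106 in TG Low, with a blocked difference of 0.70 (SE 0.32, adjusted p = 1). In the fit without the block, Pcna and Cdc45 had the smallest p in CD25 High, with differences of 0.22 (SE 0.17) and 0.40 (SE 0.72). Cdk1 and Ccne1 had it in CD25 Low, with 0.62 (SE 1.61) and 0.10 (SE 0.27). Each pair of groups overlapped for these genes. The difference of the genotype effects between gates passed for 0 of 38 genes with the block or without it (edgeR and DESeq2, 0% of all genes in each). At an unadjusted p under 0.05 there were 0 without the block (0.229% of all genes) and 1 with it (1%). That 1 was Cdc45, at 0.60 (SE 0.25, adjusted p = 1), and Pcna had a difference of 0.23 (SE 0.14).

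These differences were not alike in the 3 numbers. In number 1, TG High was the highest of the 4 libraries for all 38 genes. There, CD25 High was above Low for 38 of 38 genes in each genotype (medians of 0.434 in WT and 0.521 in TG, log2), and TG was above WT for 38 of 38 in CD25 High (0.305) and 35 of 38 in CD25 Low (0.215). These comparisons share libraries, so they are not separate evidence. In number 2, CD25 High was above Low for 23 genes in WT (median 0.0867) and 16 in TG (-0.0432), and TG above WT for 21 in High (0.0555) and 28 in Low (0.136). In number 3 the counts were 22 (0.0206), 24 (0.221), 26 (0.061) and 17 (-0.0569). The sum of the 38 genes was 937 to 995 CPM in number 2 and 817 to 875 in number 3, whatever the group.

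Without the 4 libraries numbered 1, no gene of the 38 passed in any comparison (edgeR, with and without the block), and at most 2 had an unadjusted p under 0.05. With the block, CD25 High was then above Low for 21 of 38 genes in WT (median 0.0343) and 24 in TG (0.0471), and TG above WT for 24 in High (0.0553) and 25 in Low (0.0756). The low level of these genes in numbers 2 and 3 limits what can be seen there. All 38 genes still passed the filter on those 8 libraries alone.

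**Figure D5:**
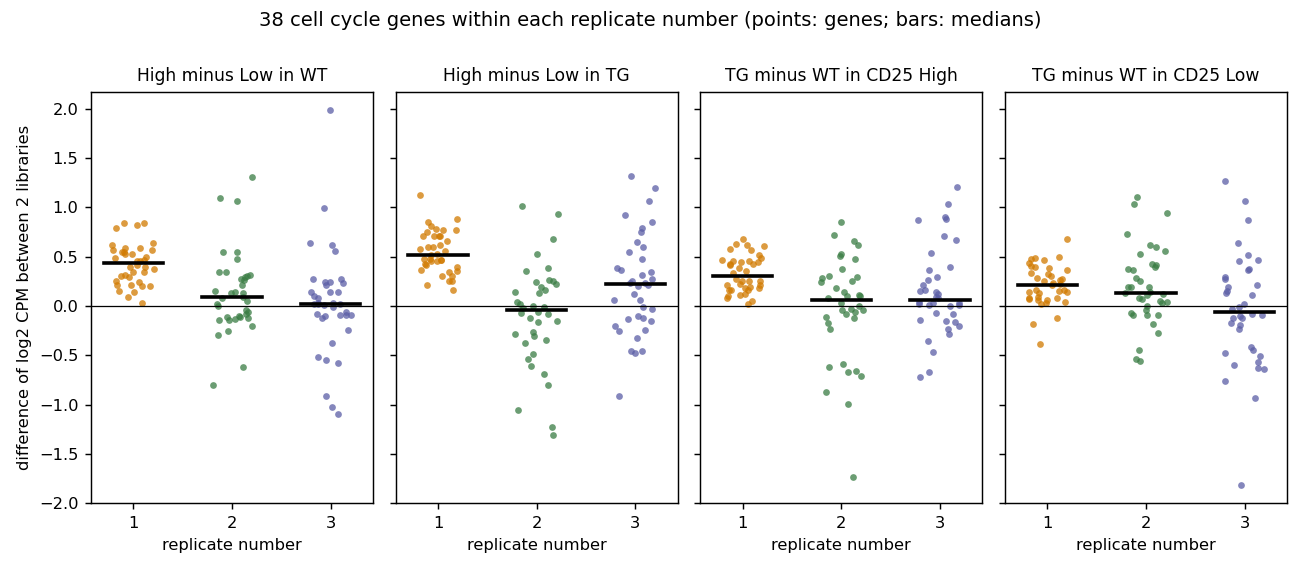
Difference of log2 CPM between 2 libraries of the same replicate number for each of the 38 genes (points) with the median (bars), in 4 comparisons. In number 1 nearly all points lie above 0, with medians from 0.215 to 0.521, while in numbers 2 and 3 they spread to both sides, with medians from -0.0569 to 0.221.

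Main positions, on GRCm38 with the GENCODE annotation, are as follows, and each of these genes is protein coding. Top2a (ENSMUSG00000020914) lies on chr11:98992943-99024189 and Mki67 (ENSMUSG00000031004) on chr7:135689784-135716361. Cdk1 (ENSMUSG00000019942) lies on chr10:69335146-69352938 and Ccna2 (ENSMUSG00000027715) on chr3:36564865-36572150. Cdc45 (ENSMUSG00000000028) lies on chr16:18780447-18811987, where Ufd1 overlaps it by 209 bases on the other strand. Ccne2, Mcm7, Tk1, Kif20a, Nusap1, Cdc20 and Ube2c also overlap a counted gene on the other strand, and Pcna, Tyms, Ccnb1 and Ccnb2 have named pseudogenes that could take or lend reads.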

How the data were processed

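The authors deposited whole-number read counts per Ensembl gene for 12 libraries, without normalization. The submitters' processing notes name the tools STAR 2.4, featureCounts 1.4.6 and CASAVA 1.8.2 and the build GRCm38, and how they were set is not given in the sources used here. Per the labels' protocols, cDNA was amplified with the SMARTer Ultra Low kit, and the series' design text names Nextera XT, a chemistry that does not record strand.

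Groups and replicate numbers came from the sample titles. edgeR 4.0.16 (with R 4.3.3 and limma 3.58.1) tested the counts, with TMM scaling, filterByExpr at a minimum count of 10, which kept 11766 genes and all 38 described here, robust quasi-likelihood fits over the 12 libraries with 4 group means, and Benjamini-Hochberg adjustment at 0.05. CPM are TMM-scaled, and pairwise differences use log2 CPM with a prior count of 2. Intervals are at 95% by the normal approximation from the SE, so with so few libraries they are too narrow. The members and lists were chosen with earlier results of these data known, and so was the standing apart of the libraries numbered 1. Named genes are 8 members covering the main roles, each member called, the 2 with the smallest p where none was called, up to 4 called genes of a list, and the 10 most alike genes. Genes with smallest p in the blocked fits, and single list and marker genes given as examples, were chosen after their values were seen.

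No label says that replicate numbers mark a shared animal or day. Libraries with the same number deviated together from their group means (correlations of 0.34 to 0.83 over 18 pairs, against -0.688 to 0.197 over 36 pairs with different numbers), so they were treated as pairs and each comparison was refitted with the number as a block. Other alternatives were DESeq2 1.42.0, RLE and upper-quartile scaling, no filter, fits on the groups compared alone, and leaving out each library or all 4 numbered 1. The 2 to 3 contrast without the libraries numbered 1 was added after seeing the data. No pair of libraries agreed within sampling noise, and the scripts were tested on simulated data.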

Additional observations from a re-analysis of the deposited data

How the results depend on the processing

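With the replicate block, the count of the 38 genes called in CD25 High against Low in WT went from 0 to 1 (Top2a, by edgeR and by DESeq2), and in TG from 0 to 1 (Cdc45) by DESeq2 alone. Under the other alternatives run (RLE and upper-quartile scaling, DESeq2 without the block, no filter, only the groups compared, without the libraries numbered 1) the group comparisons stayed at 0, and the block changed no other call. Leaving out 1 library at a time, the blocked WT count ran from 0 to 1 and every other group count stayed at 0. The count by replicate number was 38 under RLE, upper-quartile scaling, no filter, the DESeq2 likelihood ratio test and all 12 fits without 1 library, 37 and 38 for number 1 against 2 and 3, and 16 for number 2 against 3, with or without the libraries numbered 1 in the fit.

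The direction of single group differences depended on single libraries. The Mki67 difference between CD25 High and Low in WT, 0.26 (log2) without the block, was -0.074 with the replicate block, -0.117 by DESeq2 with the block, and -0.693 and -0.526 without the libraries numbered 1, the latter with the block. Leaving out 1 library, it ran from -1.87 to 1.44, and from -0.42 to 0.344 with the block. Without the block, the same ranges in WT were -0.097 to 1.22 for Ccne2 and -1.07 to 2.45 for Top2a. In CD25 High against Low of TG they were -0.0181 to 0.475 for Ccne1, -0.159 to 1.57 for Cdc45 and -1.48 to 2.41 for Top2a. For TG against WT in CD25 High they were -0.363 to 1.09 for Cdc45 and -2.19 to 3.36 for Ccna2. In CD25 Low they were -1.76 to 2.93 for Ccna2, -0.0448 to 0.264 for Ccne1 and -1.05 to 2.08 for Cdk1 (-0.0883 to 0.916 with the block). For the difference of the genotype effects Cdc45 ran from -0.274 to 1.46. The lowest values without the block came from leaving out a library numbered 1. Such a fit compares groups that hold the numbers unequally, so without the block its differences include the difference between numbers. For TG against WT in CD25 High, the median of the 38 genes without TG High 1 was -1.5, and 0.00818 with the block. Without WT High 1 it was 1.8, and 0.234 with the block. The cause of the difference between numbers was not tested.

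Low counts limit the mitotic genes outside number 1, where several rest on under 30 reads a library, and counts without molecular identifiers understate the error. Only TG High 2 was shallow (6767828 reads). The other libraries numbered 2 and 3 held 18678438 to 23942479 reads, against 18161830 to 19263223 in number 1.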
